A study of Homo with 2 samples.

Results

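Among the cells of day 4 human blastoids, 76 of 1965 carried RNA of the pluripotent epiblast with little RNA of GATA3, a transcription factor of trophectoderm and amnion. They are called the epiblast-like cells here. A cell entered the group when the unique molecular identifiers (UMIs, which count RNA molecules) of SOX2, NANOG, TDGF1, ZIC2 and MIR302CHG summed to at least 300 CPM, that is, after scaling its total to 1000000 UMIs. In addition, GATA3 had to be under 100 CPM, and TBXT, MESP1, MSGN1 and TBX6, genes of the primitive streak and early mesoderm, had to sum to under 200 CPM. Library 1 held 22 such cells of 827 (2.66%, 95% exact binomial interval 1.67 to 4.00) and library 2 held 54 of 1138 (4.75%, 3.58 to 6.15). These intervals cover counting error only, and the mean share was 3.70% ± 1.47 (SD, n = 2 libraries).

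Blastoids are aggregates of stem cells that resemble the blastocyst, the embryo at implantation. Every cell descended from KhES1, a long-established line of human embryonic stem cells, grown under a single condition. Microwells held the cells for 24 h while they aggregated, and 4 days in hydrogel followed, with 10% serum and 10 µM of the ROCK kinase inhibitor Y27632. Both libraries belong to this 1 group, no control cells were analysed here, and the labels do not say whether they came from separate cultures. The comparisons are therefore between cell groups within the libraries, and p-values measure only how far a difference varied between these libraries, which may be technical.

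The epiblast is the inner tissue of the blastocyst from which the body of the fetus forms. Its cells depend on a circuit of transcription factors that includes POU5F1, SOX2 and NANOG, and on FGF and NODAL signals. Before implantation it is called naive and afterwards primed, and human embryonic stem cells in standard medium are of the primed kind. Primed cells can give rise to amnion, the sac around the embryo, under BMP signals, and to the primitive streak, the source of mesoderm and endoderm, under WNT and NODAL signals.

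The values that chose the cells are given first, as a description. SOX2, a core pluripotency factor on chromosome 3 (GRCh38, 181711925 to 181714436), stood at 188 CPM over the summed epiblast-like cells of library 1 and 147 over those of library 2, against 3.73 and 3.67 over all other cells. NANOG, its partner on chromosome 12 (7789402 to 7799146), stood at 25.1 and 62.3 against 1.28 and 1.02. TDGF1, a NODAL co-receptor on chromosome 3 (46574535 to 46582457), stood at 112 and 137 against 3.03 and 3.13. Of these genes NANOG was the least even between the libraries.

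ZIC2, a zinc finger factor of primed cells on chromosome 13 (99981784 to 99986765), stood at 148 and 156 CPM against 2.92 and 3.57. MIR302CHG, the transcript that carries the miR-302 microRNAs, on chromosome 4 (112646720 to 112650051), stood at 808 and 668 against 22.5 and 27.6. The sum of the 5 markers therefore rested mostly on this transcript. GATA3, on chromosome 10 (8045333 to 8075198), stood at 15.4 and 8.90 CPM against 169 and 155 in all other cells, and 21 of the 76 cells had at least 1 UMI of it. Cells of the streak gate held a like level, 24.6 and 9.89 CPM. Whether these few UMIs came from free RNA in the droplets was not tested, so they are not read as expression.

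Most epiblast-like cells carried several of the markers. UMIs of all 5 were found in 36 of the 76 cells, of 4 in 18, of 3 in 13, of 2 in 4 and of 1 in 5. Single genes were found in 74 cells for MIR302CHG, 66 for ZIC2, 59 for TDGF1, 57 for SOX2 and 48 for NANOG. In 6 cells, all of library 2, the group rested on at most 5 marker UMIs.

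**Figure D1:**
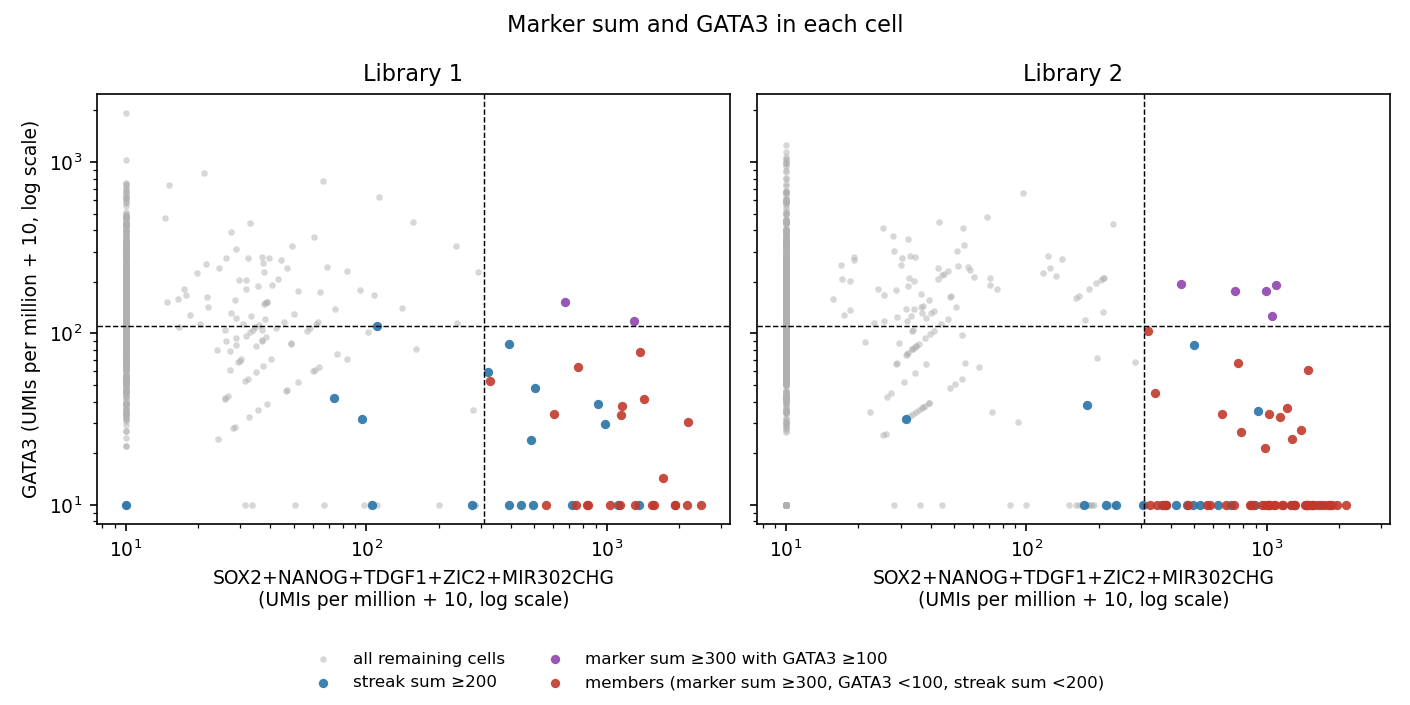
Each point is a cell, placed by its marker sum (x axis, CPM plus 10, log scale) and by GATA3 (y axis, same units); dashed lines mark 300 and 100 CPM. Red points at the lower right are the 22 and 54 epiblast-like cells, purple points the 2 and 5 cells with the marker sum and GATA3, blue points the 18 and 19 cells over the streak limit, and grey points all remaining cells.

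Cells lay close to the marker limit mainly in library 2. In library 1 the lowest marker sum inside the group was 319 CPM, with the next at 550, and the highest outside it was 273; 3 cells that met the other limits had sums of 200 to 300. In library 2 the lowest inside was 310 and the highest outside 299, 7 cells that met the other limits had sums of 200 to 300, and 7 of its epiblast-like cells were under 400. The highest GATA3 level inside was 68.3 and 93.0 CPM in the libraries, and the lowest in a cell that only GATA3 kept out was 109 and 117.

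The epiblast-like cells were somewhat deeper than all other cells, with a median of 49672.5 UMIs in library 1 and 49981.5 in library 2 against 37555 and 32470. They had a median of 8652.5 and 8514.5 detected genes, and the median mitochondrial share was 6.76% and 5.01% against 6.17% and 6.04%. In library 1 a single cell of 226338 UMIs supplied 18.3% of the UMIs of the group. The doublet caller marked 0 cells in library 1 and 5 in library 2 (0.439%), none of them in the group, so doublets were in effect not removed. The libraries shared 1 barcode, and 0 among the cells kept.

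POU5F1, a master pluripotency factor on chromosome 6 (31164337 to 31170682) that the selection did not use, marked nearly all of these cells. Over the summed cells it stood at 668 CPM in library 1 and 779 in library 2, against 58.0 and 69.4 in all other cells. Its log2 fold change was 3.39 (SE 0.12, edgeR's quasi-likelihood test with Benjamini-Hochberg adjustment, adjusted p = 2.7e-10). After each cell was thinned to 5000 UMIs, a POU5F1 UMI was found in 95.5% and 88.9% of epiblast-like cells and in 15.4% and 17.3% of all other cells. Without thinning these shares were 100% and 94.4% against 60.6% and 57.5%. The 3 cells without it, all in library 2, had 5926 to 32259 UMIs. POU5F1 has near-identical copies elsewhere in the genome, and the counting could have split its reads.

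Of all 18943 genes tested against all other cells, 33.9% passed an adjusted p of 0.05, 15.5% higher and 18.4% lower in the epiblast-like cells. Over all genes tested, the median log2 fold change stood at -0.08. The cells were chosen on markers of their identity, so genes that accompany those markers had to differ. The counts below describe how large and how even the difference was, not independent evidence of the label. Each list's count is to be read beside the 15.5% and 18.4% of all genes.

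Of the 33 core pluripotency genes tested, 31 were higher in the epiblast-like cells and 0 lower, where 15.5% of all genes were higher. The list had a median log2 fold change of 2.11. At an unadjusted p under 0.05, and with DESeq2, 0 of these genes were lower as well. HPAT5, a long non-coding RNA of primate pluripotent cells, stood at 196 and 173 CPM against 2.73 and 3.25 (log2 5.82, SE 0.18, adjusted p = 2.0e-10). ESRG, another such RNA, stood at 146 and 203 against 8.65 and 10.7 (log2 4.05), and GDF3, a ligand of the NODAL type, at 10.5 and 21.5 against 0.223 and 0.174 (log2 6.18). In each the levels in the libraries lay close together beside the gap to all other cells.

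The fold was smaller for genes that the other cells also held. L1TD1, an RNA-binding protein of stem cells, stood at 799 and 749 CPM against 375 and 371 (log2 0.94, SE 0.11, adjusted p = 1.3e-05). LIN28A, which blocks let-7 microRNA processing, stood at 287 and 257 against 144 and 136 (log2 0.84), and DPPA4, a chromatin factor, at 289 and 278 against 64.8 and 56.7 (log2 2.11). TERF1, a telomere-binding protein, stood at 396 and 285 against 63.2 and 58.7 (log2 2.35). JARID2, a subunit of Polycomb complex 2, was the least even of the list's abundant genes, at 746 and 399 against 163 and 146 (log2 1.71).

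DPPA2 and ZFP42, named because they were the only list members not called, did not share this pattern. ZFP42, a zinc finger factor often used as a stem cell marker, stood at 78.4 and 63.1 CPM against 71.5 and 70.5 (log2 -0.14, adjusted p = 0.52). DPPA2 had 0 and 1.48 CPM. FOXD3 was too low to be tested.

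**Figure D2:**
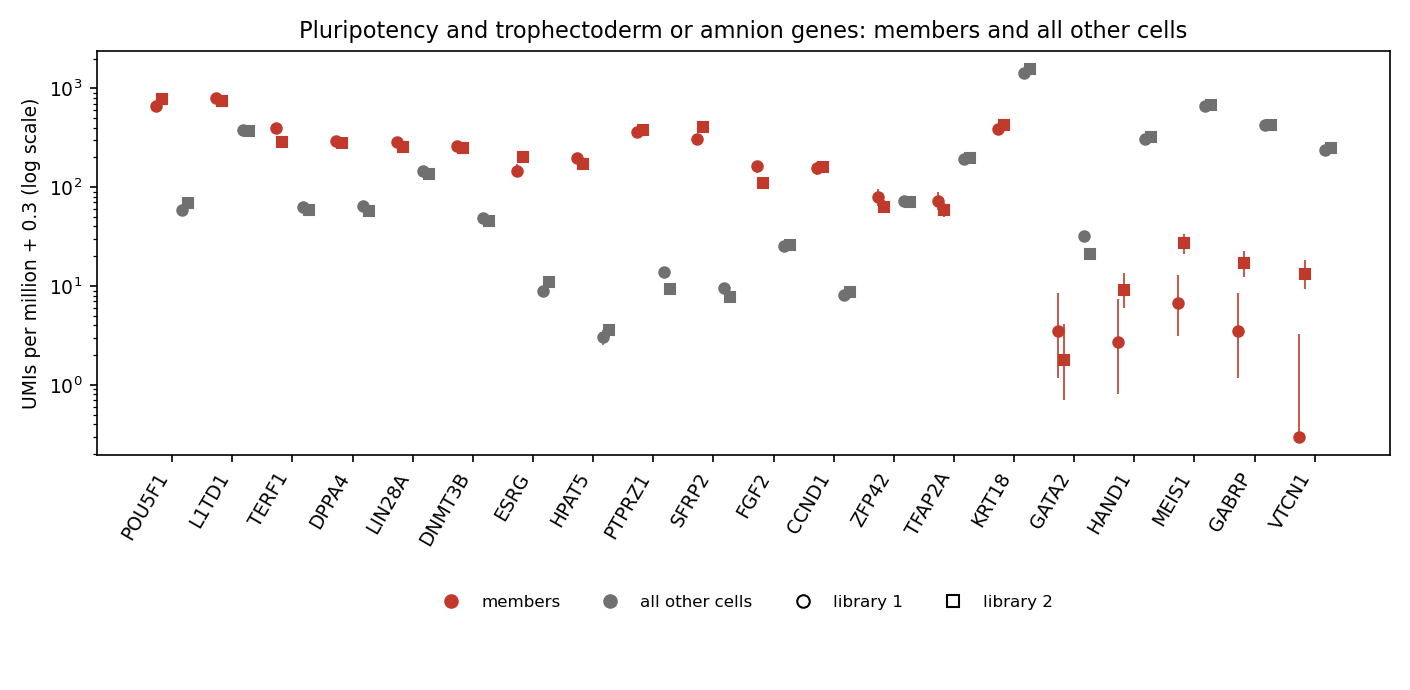
CPM plus 0.3 (log scale) of 20 genes summed over the epiblast-like cells (red) and over all other cells (grey), in library 1 (circles) and library 2 (squares); bars are exact Poisson intervals for counting error. POU5F1 to CCND1 lie higher in the epiblast-like cells in both libraries, ZFP42 lies together, and TFAP2A to VTCN1 lie lower.

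Primed genes were mostly higher, and few naive genes could be tested. Of 23 primed genes tested, 18 were higher and 4 lower (median log2 1.98). SFRP2, a secreted WNT modulator, stood at 308 and 403 CPM against 9.16 and 7.47 (log2 5.31, SE 0.18, adjusted p = 2.1e-10). PTPRZ1, a receptor tyrosine phosphatase, stood at 357 and 379 against 13.6 and 8.96 (log2 4.95). VCAN, a matrix proteoglycan, stood at 535 and 402 against 53.8 and 52.4 (log2 3.01).

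The 4 lower genes of that list were TCF7L1, GLI3, LRRN1 and SFRP1, at log2 -1.24, -1.60, -1.73 and -2.41. Of 19 naive genes 12 were in both tables, which left out KLF17, DPPA5 and DPPA3. Only 7 of the 12 were high enough to test. Of these, NODAL was higher, UPP1, an enzyme of uridine breakdown, was lower (log2 -2.42), and KLF4, KLF5, TFCP2L1, SUSD2 and OLAH were not called. TFCP2L1, a naive factor, stood at 12.9 and 2.60 CPM against 5.68 and 5.73.

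Ligands and inhibitors of the NODAL pathway were higher and several of its receptors and mediators lower. Of 18 genes tested, 8 were higher and 5 lower, and the list's median was -0.03. These are 44.4% and 27.8%, against 15.5% and 18.4% of all genes. NODAL, the ligand, stood at 21.8 CPM in library 1 and 92.0 in library 2 against 1.45 and 1.46 (log2 5.04, SE 0.41, adjusted p = 2.8e-07). Both libraries lay above all other cells, but the second was much higher than the first. CER1, a secreted NODAL inhibitor, showed the same gap, at 3.23 and 59.0 against 0.445 and 1.32 (log2 4.79). FOXH1, a DNA-binding partner of SMAD proteins, stood at 43.6 and 76.4 against 5.79 and 5.61 (log2 3.28). The receptors ACVR2A and ACVR2B were lower, at log2 -1.75 and -0.46, and so were the mediators SMAD2 and SMAD3, at -1.04 and -1.11. The ACVR2B call was lost with DESeq2 (adjusted p = 0.21).

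The FGF pathway leaned further to the higher side, with 16 of 23 genes higher and 4 lower (median log2 1.68). These are 69.6% and 17.4%, against 15.5% and 18.4% of all genes, so the lower share was near that of all genes. Among ligands, FGF2, which maintains human stem cells in culture, stood at 162 and 109 CPM against 24.8 and 25.7 (log2 2.27, SE 0.17, adjusted p = 1.1e-07). FGF17 stood at 9.70 and 70.8 against 2.20 and 2.31 (log2 3.86), a call lost without the EOMES-bearing cells described below (adjusted p = 0.088). FGF4 had 0 UMIs in library 1 and 36.4 CPM in library 2 against 0.445 and 0.819. The FGF4 call therefore rested on library 2 alone, and it was lost with DESeq2 (adjusted p = 0.70) and without those cells (adjusted p = 0.32).

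Among FGF receptors, FGFR1 was higher, at 530 and 372 CPM against 131 and 126 (log2 1.67), and FGFR2 lower, at 128 and 82.7 against 174 and 184 (log2 -0.93). The pathway's targets ETV4 and SPRY4 were higher at log2 3.01 and 2.39. FGF13, an intracellular protein of the same family, stood at 539 and 291 against 49.2 and 49.7 (log2 2.88).

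Of 32 WNT pathway genes, 17 were higher and 7 lower (median log2 0.57). Their shares were 53.1% and 21.9%, where 15.5% of all genes were higher and 18.4% lower. SP5, a transcription factor switched on by WNT, stood at 88.1 and 184 CPM against 4.48 and 6.50 (log2 4.48, SE 0.18, adjusted p = 6.4e-10). The targets AXIN2, SP8 and LEF1 were higher at log2 2.50, 3.86 and 1.74, and the ligand WNT3 stood at 11.3 and 41.9 against 4.2 and 3.38 (log2 2.69). The secreted inhibitor SFRP1 and the ligand WNT6 were lower, at log2 -2.41 and -3.11.

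The BMP pathway was mixed, with 3 of 22 genes higher and 7 lower (median log2 -0.45). These are 13.6% and 31.8%, against 15.5% and 18.4% of all genes. ID3, a target of BMP, stood at 308 and 389 CPM against 92.4 and 115 (log2 1.63, SE 0.12, adjusted p = 1.6e-07), while its relatives ID1, ID2 and ID4 were not called. The receptor BMPR1A was higher, at 461 and 464 against 206 and 196 (log2 1.09). BAMBI, a decoy receptor, stood at 59.0 and 58.6 against 193 and 219 (log2 -1.93), and SMAD9, a mediator, was lower at log2 -2.43. BMP4, the ligand used to make amnion from stem cells, stood at 21.8 and 15.2 against 27.7 and 26.0 (log2 -0.70, adjusted p = 0.034), a call lost with DESeq2 (adjusted p = 0.22).

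Of the 28 genes of the epithelial adhesion and polarity list, which also holds mesenchymal genes and repressors such as VIM and SNAI2, 14 were lower and 3 higher, where 18.4% of all genes were lower. PKP2, a desmosome protein, stood at 29.9 and 38.2 CPM against 296 and 293 (log2 -3.20, SE 0.16, adjusted p = 2.5e-09). VIM, an intermediate filament protein of mesenchymal cells, was lower too, at 74.4 and 154 against 1272 and 1242 (log2 -3.60). EPCAM, an epithelial adhesion molecule, stood at 260 and 209 against 258 and 280 (log2 -0.32) and was not called, whereas CDH1, the cadherin of epithelia, was slightly lower at log2 -0.45 (adjusted p = 0.022, and 0.18 with DESeq2). CDH2, the cadherin of mesoderm and neural tissue, stood at 76.8 and 231 against 40.0 and 35.2 (log2 1.82), and ZEB2, a repressor of epithelial genes, at 35.6 and 47.5 against 6.93 and 3.82 (log2 2.93).

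Most trophectoderm and amnion genes were lower. Of 29 trophectoderm and trophoblast genes 23 were lower and 2 higher (median log2 -2.20), and of 24 amnion genes 20 were lower and 1 higher (median -3.91). HAND1, a factor of trophoblast, amnion and mesoderm, stood at 2.42 and 8.90 CPM against 303 and 323 (log2 -5.71, SE 0.24, adjusted p = 9.2e-10). MEIS1, a homeobox factor, stood at 6.47 and 26.7 against 668 and 675 (log2 -5.33), and GABRP, a receptor subunit often used as an amnion marker, at 3.23 and 16.7 against 428 and 428 (log2 -5.35). LRP2, an endocytic receptor, stood at 4.04 and 14.5 against 376 and 375 (log2 -5.28).

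Keratin RNA was lower but still abundant; KRT8 and KRT18 have many near-identical copies, so their counting is uncertain. KRT18 stood at 388 and 423 CPM against 1430 and 1550 (log2 -1.99), and KRT8 and KRT19 were lower at log2 -2.20 and -2.75. TFAP2A, a factor of surface ectoderm, trophoblast and amnion, stood at 71.9 and 59.0 against 193 and 198 (log2 -1.71). TEAD4, a trophectoderm factor singled out after its values were seen, showed no difference, at 30.7 and 30.4 against 28.2 and 28.2. CDX2 was higher at log2 1.46, but from only 14.5 against 4.81 and 4.89 CPM.

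Of 15 mesenchyme genes, 11 were lower and 2 higher (median log2 -2.53). DCN, LUM and COL3A1, matrix proteins, were lower at log2 -6.08, -5.59 and -5.57. In library 1 DCN and COL3A1 had 0 UMIs in the epiblast-like cells, and in library 2 they had 1.48 and 2.23 CPM. FN1, a matrix protein, stood at 292 and 104 against 963 and 955 (log2 -2.57).

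Of 24 neural genes 13 could be tested, of which 6 were higher and 2 lower. These are 46.2% and 15.4%, where 15.5% of all genes were higher and 18.4% lower. PAX6, SOX1 and HES5 were not analysed here because they were not in both tables. TUBB3, a neuronal tubulin that stem cells also hold, stood at 88.9 and 66.0 CPM against 30.6 and 33.6 (log2 1.13), and NES, an intermediate filament protein of progenitors, at 74.4 and 125 against 58.3 and 52.4 (log2 0.74). The lower genes were RAX, an eye field factor, and MAP2, a microtubule protein of neurons, at log2 -4.81 and -1.74. Of 10 germ cell genes tested, 4 were higher and 3 lower, or 40% and 30%. ALPL, a phosphatase of stem and germ cells, stood at 62.2 and 65.7 against 5.45 and 6.28 (log2 3.33). NANOS3, a germ cell regulator, had 0.808 and 0.371 CPM, and DDX4 was at 0 in both libraries.

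Genes of DNA replication were higher as a group. Of 43 S phase genes 27 were higher and 0 lower, and of 54 G2 and mitosis genes 22 were higher and 0 lower, with median log2 fold changes of 0.72 and 0.38. The higher shares were 62.8% and 40.7%, where 15.5% of all genes were higher. NASP, a histone chaperone, stood at 635 and 720 CPM against 320 and 343 (log2 0.91, SE 0.11, adjusted p = 1.9e-05). CENPF, a kinetochore protein, stood at 471 and 585 against 361 and 334 (log2 0.49), and TOP2A, a topoisomerase of dividing cells, at 331 and 361 against 249 and 210 (log2 0.49). The CENPF and TOP2A calls were lost with DESeq2 (adjusted p = 0.091 and 0.093). Of the G2 and mitosis genes 1 was lower at an unadjusted p under 0.05, and 0 with DESeq2. MKI67, a proliferation marker added after its values were seen, stood at 67.9 and 110 against 93.0 and 89.3 (log2 -0.15) and was not called.

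The regulators of entry into S phase differed by gene. CCND1, cyclin D1, stood at 154 and 161 CPM against 7.76 and 8.36 (log2 4.17, SE 0.16, adjusted p = 2.8e-10). CCND2, cyclin D2, did not differ detectably, at 147 and 167 against 145 and 139. CDK6, their kinase partner, was lower, at 96.2 and 83.1 against 294 and 294 (log2 -1.84), and CDKN1C, an inhibitor of cell division, was lower at log2 -2.76.

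Cholesterol synthesis and one-carbon metabolism had the largest shares of higher genes among the metabolic lists. Of 23 cholesterol genes 19 were higher and 0 lower (median log2 1.80), and of 20 serine and one-carbon genes 18 were higher and 1 lower (median 0.84). SREBF2, the factor that switches on sterol synthesis, stood at 203 and 156 CPM against 40.9 and 38.4 (log2 2.05), and SQLE, squalene epoxidase, at 96.2 and 96.8 against 18.3 and 16.7 (log2 2.35). PSAT1, an enzyme of serine synthesis, stood at 204 and 192 against 25.3 and 24.1 (log2 2.89).

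Glycolysis and respiration shifted less. Of 21 glycolysis genes 11 were higher and 5 lower, or 52.4% and 23.8%. LDHB, a lactate dehydrogenase, stood at 1143 and 1141 CPM against 483 and 492 (log2 1.11), and the glucose transporter SLC2A1 was lower at log2 -0.91. Of 24 nuclear genes of oxidative phosphorylation 8 were higher and 0 lower, or 33.3% and 0%. Over all genes the shares were 15.5% and 18.4%. Of 78 ribosomal protein genes 8 were higher and 4 lower (median log2 -0.02), fewer than the 33.9% called among all genes.

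Several smaller lists were higher in more than 15.5% of their genes. Of 9 DNA methylation enzymes 5 were higher and 1 lower, DNMT3B, which methylates new sites, standing at 263 and 247 CPM against 48.6 and 45.3 (log2 2.32). Of 23 p53 targets and apoptosis genes 9 were higher and 2 lower, and BCL2, which blocks cell death, was lower at log2 -2.14.

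Stress genes gave 5 of 19 heat shock and unfolded protein genes higher and 1 lower, and 3 of 18 immediate early genes higher and 5 lower. The higher shares were 26.3% and 16.7%, where 15.5% of all genes were higher. The lower shares were 5.26% and 27.8%, where 18.4% of all genes were lower. The immediate early list was thus near all genes on the higher side. HSPE1, a mitochondrial chaperone, stood at 833 and 924 CPM against 338 and 363 (log2 1.21), and JUN, an early response factor, at 21.0 and 26.3 against 107 and 107 (log2 -2.26). Of 9 telomere and licensing factors 6 were higher and 1 lower, TERT, the catalytic part of telomerase, standing at 7.27 and 7.79 against 1.92 and 1.59 (log2 2.02).

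**Figure D3:**
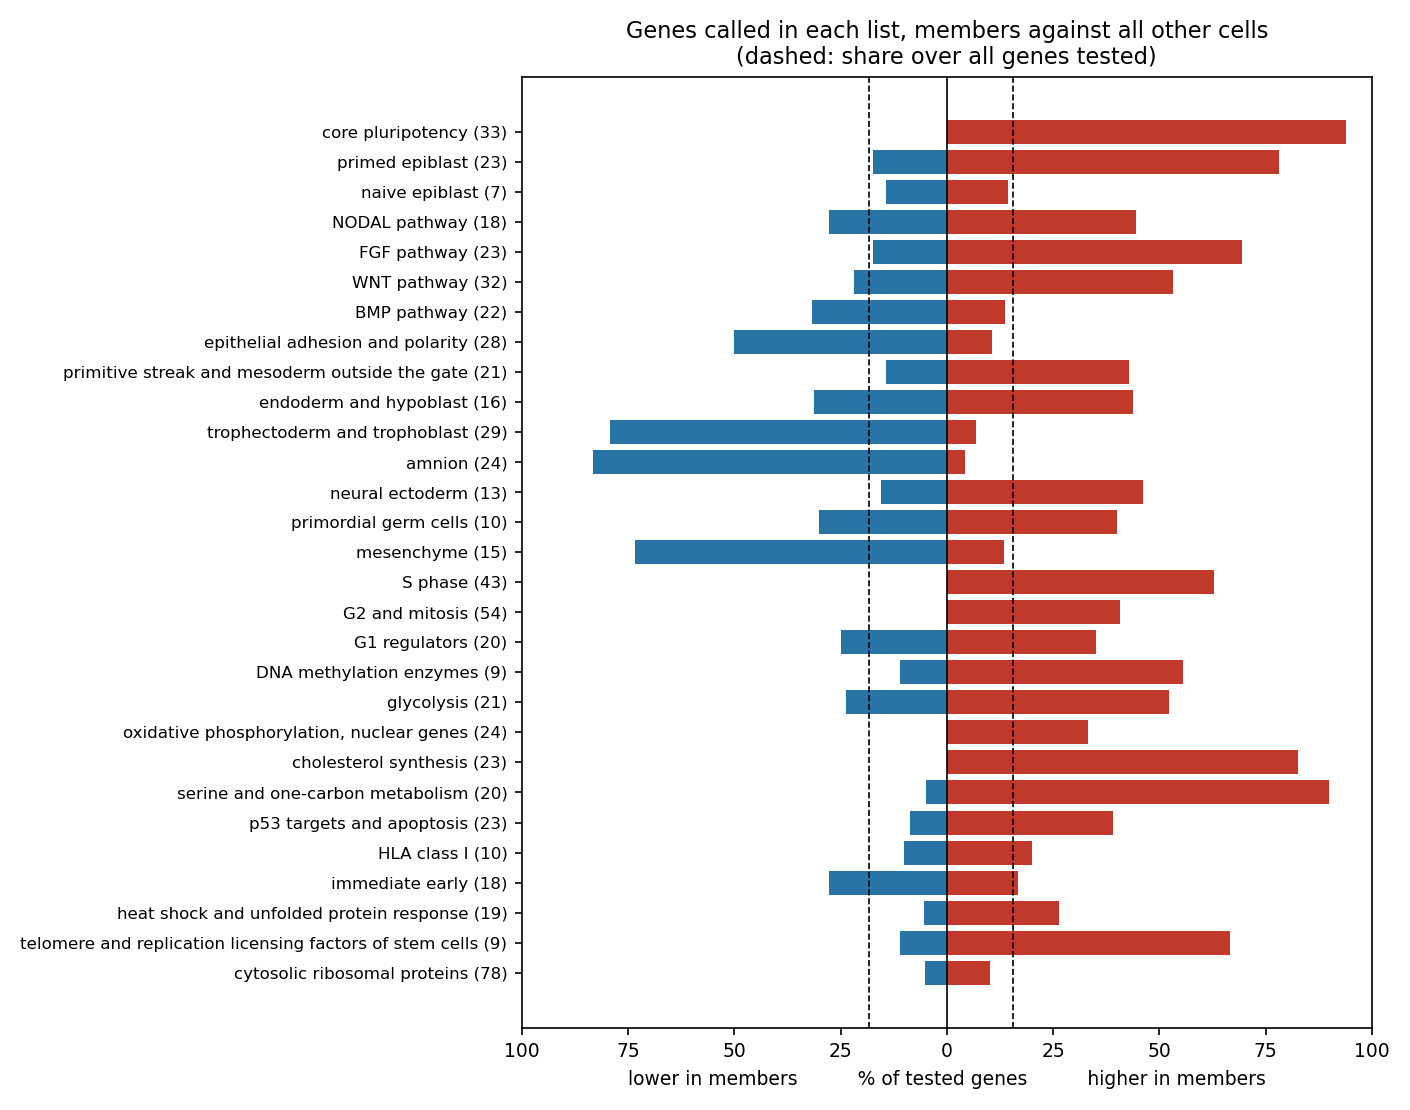
Share of the tested genes of each list that were higher (red, right) or lower (blue, left) in the epiblast-like cells against all other cells, with the number tested in brackets; dashed lines are the shares over all genes, 15.5% and 18.4%. Core pluripotency, serine and one-carbon metabolism and cholesterol synthesis reach furthest to the right, and amnion, trophectoderm and mesenchyme furthest to the left.

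Several of the largest differences lay outside these lists. NR5A2, a nuclear receptor that binds the POU5F1 gene, stood at 53.3 and 71.6 CPM against 1.86 and 1.79 (log2 4.98). Among non-coding RNAs, MIAT stood at 97.8 and 62.7 against 2.50 and 1.89 (log2 5.05), RMST, which binds SOX2 protein, at 208 and 74.9 against 6.57 and 2.71 (log2 4.78), and JAKMIP2-AS1 at 59.0 and 46.0 against 0.473 and 1.41 (log2 5.68). As no label states whether counting used strand, reads of JAKMIP2-AS1 and of an overlapping gene cannot be told apart. MGAT4C, a glycosyltransferase, and CDH6, a cadherin, were higher at log2 4.79 and 4.41.

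On the lower side, EPAS1, the hypoxia factor HIF-2 alpha, stood at 3.23 and 20 CPM against 758 and 707 (log2 -5.89, SE 0.31, adjusted p = 4.1e-09). KCNQ5, a potassium channel, stood at 0.808 and 26.3 against 732 and 736 (log2 -5.69), and PAPPA2, a protease of IGF-binding proteins, at 4.85 and 15.2 against 687 and 679 (log2 -6.04). PMP22, a membrane protein of myelin, NDNF, a secreted protein, CALB2, a calcium-binding protein, P2RY6, a nucleotide receptor, and LRRC63 were lower at log2 -6.03, -5.88, -5.81, -5.78 and -5.83. The levels in the epiblast-like cells of library 2 were above those of library 1 for EPAS1, KCNQ5 and PAPPA2.

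The epiblast-like cells were not uniform, and the libraries differed in genes of the streak and anterior endoderm. EOMES, a T-box factor of the early streak and endoderm, stood at 18.6 CPM in library 1 and 127 in library 2, against 3.06 and 2.48 in all other cells (log2 4.39, SE 0.51, adjusted p = 1.1e-05). MIXL1, a homeobox factor of the streak, stood at 29.9 and 249 against 14.6 and 12.3 (log2 2.96). All other cells include the streak-gate cells described below. These held 98 of the 110 EOMES UMIs of all other cells in library 1 and 78 of 100 in library 2. Of 21 streak and mesoderm genes outside the selection rule 9 were higher and 3 lower, and of 16 endoderm and hypoblast genes 7 were higher and 5 lower. These are 42.9% and 14.3% of the first list and 43.75% and 31.25% of the second. Over all genes the shares were 15.5% and 18.4%. SOX17, an endoderm factor, had 0 UMIs in library 1 and 15.9 CPM in library 2. With DESeq2 the MIXL1 and SOX17 calls were lost (adjusted p = 0.15 and 0.82). Streak and endoderm marker levels therefore varied with the library within the group, and whether culture or handling differed was not tested.

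Single cells showed the same. EOMES reached 100 CPM in 1 of 22 epiblast-like cells of library 1 (4.55%, 0.115 to 22.8) and in 25 of 54 of library 2 (46.3%, 32.6 to 60.4). At a common 5000 UMIs an EOMES UMI was found in 9.09% and 35.2% of them, against 0.62% and 0.55% of all other cells, while the median depth of the group was alike in the libraries. Without thinning the shares in the group were 40.9% and 64.8%.

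Within library 2, the 25 cells with EOMES held pluripotency genes at levels near those of the rest. SOX2 stood at 144 CPM in them and 150 in the other 29 cells, NANOG at 73.5 and 52.2, and POU5F1 at 905 and 666. NODAL stood at 159 against 31.1, CER1 at 118 against 5.65, MIXL1 at 481 against 39.5, FGF17 at 141 against 7.06 and FGF4 at 72.7 against 3.53. The split was made on EOMES after the data were seen, in 1 library, and these values carry no test. With those cells left out of both libraries, NODAL and EOMES were still called against all other cells, at log2 3.91 and 3.07.

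Some of these genes came from very few cells. The 5 cells richest in each gene held 70.1% of the MIXL1 UMIs of the group in library 2, 79.9% of those of CER1, 82.7% of those of FGF4 and 100% of those of SOX17. For NODAL and EOMES the shares were 45.2% and 37.4%. POU5F1 was spread more widely, with 23.8%.

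SOX2 was missing from part of the group. Of cells with at least 20000 UMIs, 4 of 17 in library 1 and 7 of 41 in library 2 had no SOX2 UMI. In these 7 cells MIXL1 stood at 853 CPM, EOMES at 207, SOX17 at 89.5 and GATA6, an endoderm factor, at 72.7. In the 34 deep cells of library 2 with SOX2, the same genes stood at 164, 119, 0.456 and 11.4. EOMES reached 100 CPM in 4 of the 7 cells and in 17 of the 34. In library 1 it did so in 1 of the 4 deep cells without SOX2 and 0 of the 13 with it. SOX17 came from 1 of the 7 cells. POU5F1 stood at 604 without SOX2 and 832 with it. As the split used SOX2 after its values were seen, no test was made.

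A few cells held UMIs of amnion genes beside the pluripotency markers. The summed level of 6 amnion markers (ISL1, VTCN1, GABRP, ITGB6, IGFBP5 and TFAP2B) was at least 200 CPM in 8 of 54 epiblast-like cells of library 2 and in 0 of 22 of library 1, with 829 and 192 as the highest values. Summed over the group it was 13.7 and 51.6, against 1107 and 1104 over all other cells, where VTCN1 and ITGB6 were at 0 in the group in library 1. The 8 cells had a median of 15654 UMIs, 2 of them had fewer than 10000, and 2 had at least 20000. Whether their amnion UMIs came from free RNA in the droplets was not tested. Their part in the amnion levels of library 2 was measured by leaving them out, after the data were seen, and GABRP and MEIS1 were then lower at log2 -6.45 and -6.70.

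TFAP2A reached 100 CPM in 4 and 12 epiblast-like cells. In these cells POU5F1 stood at 541 and 700, SOX2 at 159 and 137, and GATA3 at 25.2 and 20.1. In the 12 cells of library 2 GABRP stood at 38.4 and VTCN1 at 40.1, against 16.7 and 13.0 over the whole group.

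**Figure D4:**
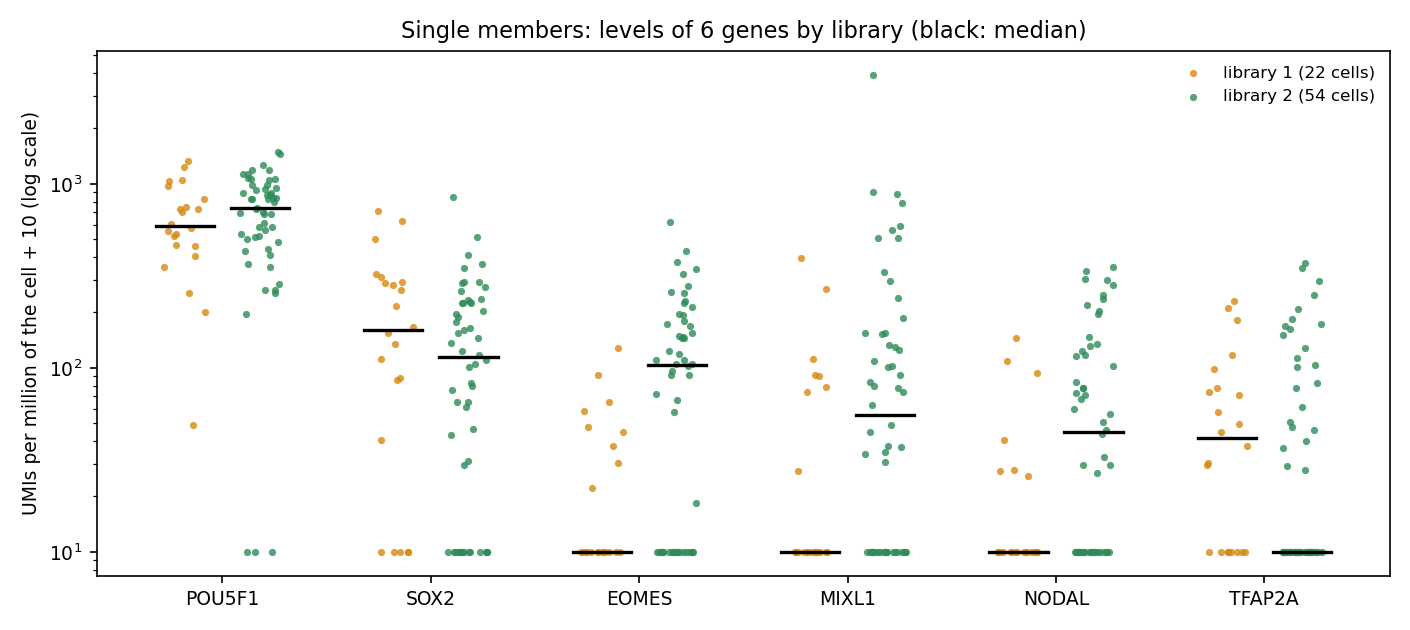
Each point is an epiblast-like cell, with the level of a gene in CPM plus 10 (log scale), in library 1 (orange, 22 cells) and library 2 (green, 54 cells); black bars are medians. POU5F1 is high in nearly all cells of both libraries; EOMES, MIXL1 and NODAL have a UMI in 9, 8 and 7 of 22 cells of library 1 and in 35, 34 and 32 of 54 of library 2.

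The streak-gate cells, 18 in library 1 and 19 in library 2, were those in which TBXT, MESP1, MSGN1 and TBX6 summed to at least 200 CPM. They held 521 and 564 CPM of the 5 pluripotency markers against 1282 and 1171 in the epiblast-like cells. Of 13173 genes tested between these groups, 6.11% passed an adjusted p of 0.05, 2.91% higher and 3.2% lower in the epiblast-like cells. Over these genes the median log2 fold change stood at 0.01. The streak sum set these groups apart, so genes that accompany the streak genes had to differ. List counts below are a description, to be read beside the 2.91% and 3.2% of all genes.

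Core pluripotency genes differed less from the streak-gate cells than from all other cells. Of 30 tested, 15 were higher in the epiblast-like cells and 1, SALL4, was lower (log2 -0.72), with a list median of 0.79. SOX2, a gene of the selection rule, had no UMI in 16 of 18 streak-gate cells of library 1 and 16 of 19 of library 2. The levels are sums over cells, so they cannot tell a lower level in each cell from a mix of cells. POU5F1 stood at 668 and 779 CPM against 411 and 459 in the streak-gate cells (log2 0.77, SE 0.10, adjusted p = 0.0058). With each cell thinned to 5000 UMIs the POU5F1 difference was 0.40 and not called (adjusted p = 0.46). HPAT5 stood at 196 and 173 against 24.6 and 17.3 (log2 3.14, SE 0.25, adjusted p = 7.8e-04), and TERF1 at 396 and 285 against 93.7 and 111 (log2 1.77). LIN28A, at 287 and 257 against 222 and 240, was not called. Thinning also ended the SALL4 call (adjusted p = 0.21).

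Of 22 primed genes 10 were higher and 2, THY1 and CDH2, were lower than in the streak-gate cells. PODXL, a sialoprotein of the apical surface, stood at 343 and 214 CPM against 50.1 and 29.7 (log2 2.81, SE 0.22, adjusted p = 8.1e-04). SFRP2 stood at 308 and 403 against 139 and 136 (log2 1.41). Of 22 FGF pathway genes 5 were higher and 1 lower, FGF13 standing at 539 and 291 against 114 and 113 (log2 1.88).

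The epithelial adhesion and polarity list, which also holds mesenchymal genes and repressors of epithelial genes, had called genes in both directions. Of 28 adhesion and polarity genes 9 were higher in the epiblast-like cells, among them CLDN3, a tight junction protein, at 29.9 and 16.7 CPM against 0.822 and 2.47 (log2 3.95, SE 0.65, adjusted p = 0.012). EPCAM stood at 260 and 209 against 98.6 and 101 (log2 1.27), and CDH1 at 248 and 163 against 131 and 90.3 (log2 0.91). The 5 lower genes were the mesenchymal genes CDH2 and VIM and the repressors ZEB1, ZEB2 and SNAI2. CDH2 stood at 76.8 and 231 against 452 and 563 (log2 -1.73), VIM at 74.4 and 154 against 368 and 396 (log2 -1.71), and SNAI2, a repressor of CDH1, at 0.808 and 1.11 against 35.3 and 34.6 (log2 -5.03). Thinned to 5000 UMIs, the differences of EPCAM, CDH1, CDH2 and VIM kept their sign and were not called (adjusted p = 0.61, 0.50, 0.095 and 0.47). The ZEB2 call was lost with a marker limit of 200 CPM (adjusted p = 0.12).

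Streak and mesoderm genes outside the gate were lower, 14 of 23 tested, with 1, NKX1-2, higher (median log2 -3.14). These are 60.9% and 4.35%, where 3.2% of all genes were lower and 2.91% higher. As the gate chose on streak genes, this describes the size of the difference and is not independent evidence. DLL3, a Notch ligand, stood at 7.27 and 5.93 CPM against 236 and 250 (log2 -5.19, SE 0.22, adjusted p = 1.7e-04). PDGFRA, a receptor of mesoderm, stood at 3.23 and 4.82 against 104 and 101 (log2 -4.56), and APLNR, the apelin receptor, at 2.42 and 2.97 against 119 and 124 (log2 -5.35). EOMES was not among the lower genes, at 18.6 and 127 against 80.5 and 96.4 (log2 -0.45, adjusted p = 0.64), and MIXL1, at 29.9 and 249 against 383 and 548, missed the threshold (log2 -1.90, adjusted p = 0.078). EOMES in the library 2 epiblast-like cells thus lay above both streak-gate values, and in library 1 below them.

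WNT genes differed in both directions, with 5 of 30 higher and 8 lower. RSPO3, a secreted enhancer of WNT signals, stood at 0.808 and 7.05 CPM against 292 and 312 (log2 -5.93, SE 0.32, adjusted p = 1.7e-04), and the ligand WNT5A at 4.85 and 1.85 against 173 and 179 (log2 -5.88). WNT3A and WNT8A, also ligands, were lower at log2 -4.99 and -3.59. SP5, one of the genes most raised over all other cells, stood at 88.1 and 184 against 112 and 197 in the streak-gate cells. TCF7L1, a repressor of WNT targets, was higher, at 110 and 116 against 38.6 and 37.1 (log2 1.62).

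In the NODAL list 0 of 14 tested genes were called against the streak-gate cells by edgeR and 0 by DESeq2, with 2 higher and 2 lower at an unadjusted p under 0.05. NODAL stood at 21.8 and 92.0 CPM against 33.7 and 14.8, below the streak-gate level in library 1 and above it in library 2. Of 21 BMP pathway genes 2 were higher and 5 lower, BMP2, a ligand, standing at 3.23 and 5.19 against 38.6 and 43.3 (log2 -3.15). Of 15 mesenchyme genes 5 were lower, led by COL5A1, a fibrillar collagen, at log2 -3.75.

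Genes of DNA replication and mitosis were not called between these groups by edgeR. No gene of 43 S phase genes or 54 G2 and mitosis genes was called, with list medians of -0.02 and -0.23. DESeq2 called 0 in both lists, and at an unadjusted p under 0.05 the counts were 1 higher in the first and 4 lower in the second. Cholesterol genes gave 1 of 23 higher and 1 lower, where 2.91% of all genes were higher and 3.2% lower. SQLE stood at 96.2 and 96.8 CPM against 84.6 and 110, and CCND1 at 154 and 161 against 127 and 135. Serine and one-carbon genes gave 2 of 20 higher, PSAT1 and GLDC, an enzyme of glycine breakdown, at log2 0.93 and 1.00 (adjusted p = 0.011 and 0.025). Glycolysis genes gave 2 of 20 lower, SLC2A1 and PKM, a pyruvate kinase, at log2 -0.98 and -0.57 (adjusted p = 0.023 and 0.046), and CDK6 was lower at log2 -1.08 (adjusted p = 0.0049). Thinned to 5000 UMIs, the PSAT1, SLC2A1, PKM and CDK6 differences were not called. In simulated data of this size the test recovered 69 of 105 genes changed 2-fold. The simulation gave every gene the same spread and changed only the more abundant genes, so this rate may not hold for these lists.

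The largest differences from the streak-gate cells on the higher side were RMST, at 208 and 74.9 CPM against 0.822 and 2.47 (log2 6.71, SE 0.42, adjusted p = 3.2e-04, and 0.0503 when thinned), and CFAP95, a gene named for a protein of cilia and flagella, at 168 and 117 against 3.29 and 3.71 (log2 5.53). RYR2, a calcium release channel, stood at 1156 and 479 against 91.2 and 51.9 (log2 3.49), but against all other cells it was not called (log2 0.20, adjusted p = 0.49). FAM20A, a secreted protein of the FAM20 kinase family, TRIML2, COBL, an actin nucleator, and CDH6 were higher at log2 4.93, 4.06, 3.65 and 3.48, as was JAKMIP2-AS1 at 4.72. PCDH19, a protocadherin, BMPER, a BMP regulator, and CCDC141 were lower at log2 -5.66, -5.60 and -4.84.

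**Figure D5:**
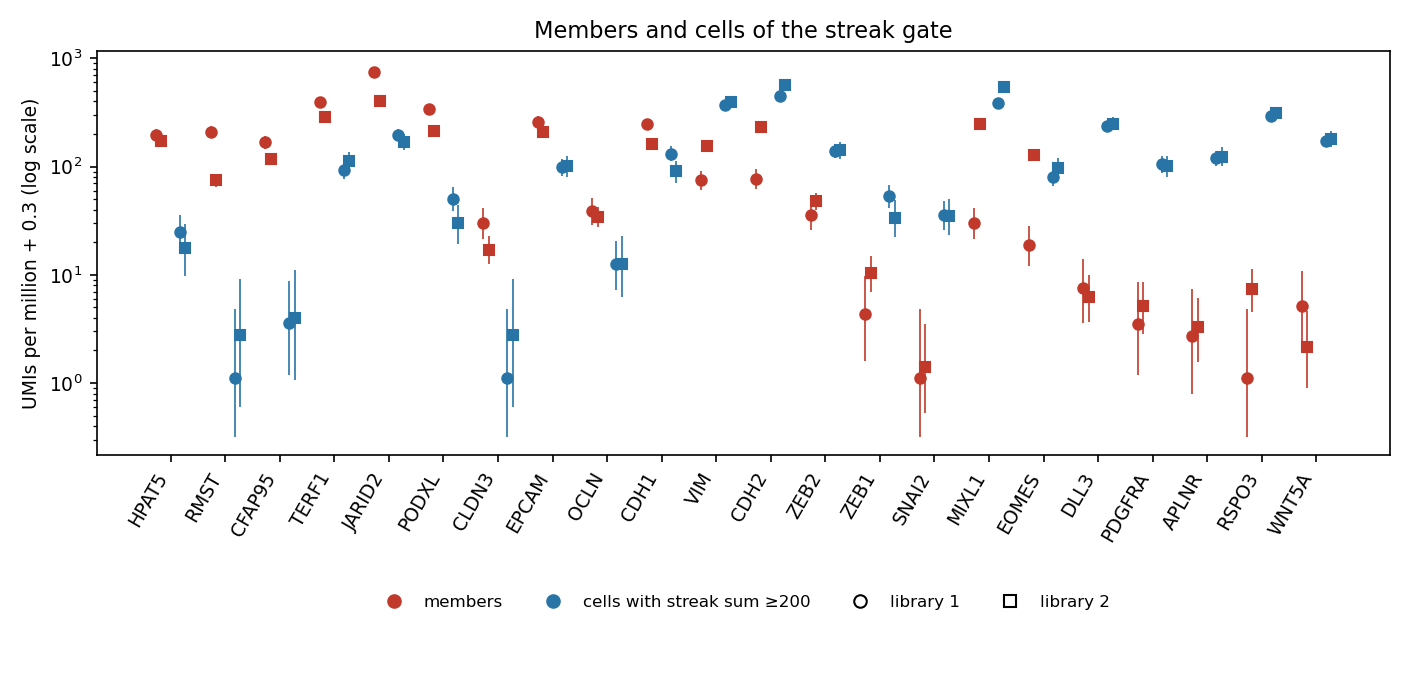
CPM plus 0.3 (log scale) of 22 genes summed over the epiblast-like cells (red) and the streak-gate cells (blue), in library 1 (circles) and library 2 (squares); bars are exact Poisson intervals for counting error. HPAT5 to CDH1 lie higher in the epiblast-like cells, VIM to SNAI2 and DLL3 to WNT5A lie lower, and the MIXL1 and EOMES values of the epiblast-like cells lie far apart between the libraries.

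Cells with the pluripotency marker sum and at least 100 CPM of GATA3 numbered only 2 in library 1 and 5 in library 2, under the 10 per library needed for a test, and are described only. They had a median of 132220 and 188344 UMIs, well above the 49672.5 and 49981.5 of the epiblast-like cells. None was called a doublet, and the part of doublets in them was not tested further. POU5F1 stood at 548 and 778 CPM in them, against 668 and 779 in the epiblast-like cells, and HPAT5 at 151 and 72.4 against 196 and 173. TFAP2A stood at 189 and 200 against 71.9 and 59.0, and TFAP2C, a factor of trophectoderm, germ cells and amnion, at 106 and 96.2 against 32.3 and 22.6. The late amnion marker GABRP, at 106 and 7.24, and MEIS1, at 238 and 6.21, differed widely between the 2 and the 5 cells.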

How the data were processed

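Droplet 3' single-cell libraries were made from 2 samples of 1 group. The authors deposited raw UMI counts per gene and barcode; Cell Ranger 9.0.0 and GRCh38 are named in the submitters' processing notes, and strand use in the counting is not stated by any label. Library totals were 38665475 and 45208758 UMIs over 1988 and 2601 barcodes. Barcodes with at least 1000 genes, at most 20% mitochondrial UMIs and at least 5000 UMIs were kept (827 and 1138). Doublets were called with scrublet in scanpy 1.11.5. The tests used the 25556 of 28363 genes that both tables list. UMIs were summed per library and cell group and tested with edgeR 4.0.16 (quasi-likelihood, TMM, filterByExpr, Benjamini-Hochberg, adjusted p under 0.05), with the library as a block because both groups of a comparison came from the same library. The first fit held 4 sums, the second 6, including the remaining cells. With so few sums, p-values rest largely on a spread pooled over genes. The 10 genes of the selection rule were not tested. The cell group with GATA3 was left out of the second fit because it had fewer than 10 cells per library. Levels (CPM) are a group's summed UMIs scaled to 1000000. Detection shares used cells thinned to 5000 UMIs. The epiblast-like cells, the gene lists and the tests were chosen with earlier results of these data known. Named genes were the 12 (all other cells) or 8 (streak gate) largest called changes in each direction with the same sign in both libraries and at least 50 CPM in the higher group, up to 10 genes a list, and the rule's genes; a few of these are not reported here. Tested on simulated data, the first fit (18810 genes) called 73 of 101 genes set to 2-fold and 99 of 99 set to 4-fold. The second (12508 genes) called 69 of 105 and 94 of 95, with 0 calls of the wrong sign. These simulations gave every gene the same spread and changed only the more abundant genes. Coordinates are RefSeq's for GRCh38.p14.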

Additional observations from a re-analysis of the deposited data

Results flagged for a closer look

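Marker RNA was also present in barcodes that the report did not use. Barcodes outside the filters held 44.1 CPM of the 5 pluripotency markers in library 1 (66 UMIs over 1161 barcodes) and 53.1 in library 2 (118 UMIs over 1463). A count of 0 would have allowed up to 2.01 and 1.35 CPM. All other kept cells held 33.5 and 39.0 CPM of the same markers, and the epiblast-like cells 1282 and 1171. The 33.5 and 39.0 include the streak-gate cells, at 521 and 564, and the marker cells with GATA3, at 1051 and 831. The remaining kept cells therefore lay lower, and the median over all other kept cells was 0 in both libraries. Of the barcodes outside the filters, 5 and 6 met the marker, GATA3 and streak limits with at least 3 marker UMIs. Among them, 1 and 4 were over the mitochondrial limit. These were singled out because the signal lay in barcodes outside the comparisons.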

How the results depend on the processing

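The share of epiblast-like cells, 3.70% as a mean of the libraries, moved by less than the SD between libraries under every alternative run. This SD rests on 2 libraries and is a loose limit. With a library left out the share was 2.66% to 4.75%, which with 2 libraries must lie within the SD of the mean. Without the EOMES-bearing cells it was 2.54% in library 1 and 2.61% in library 2, against 2.66% and 4.75% with them. Against all other cells (6423 calls, 2931 higher and 3492 lower), thinning each cell to 5000 UMIs gave 2377 calls (1014 and 1363) and DESeq2 gave 3704 (1738 and 1966), with 2205 adjusted p-values not given. Against the streak-gate cells (805 calls, 383 and 422), thinning gave 132 (44 and 88), GATA3 under 200 CPM 1328 (706 higher), no filter beyond 1 UMI 1764 (935 and 829), and a marker sum of at least 500 CPM 652 lower. Thinning tested fewer genes (12711 and 5072); the cause of the other moves was not tested. Without the replicate block there were 7382 and 877 calls. With the rule applied to a random set of the UMIs and values taken from the rest, there were 5724 and 897. No call turned into a call of the opposite sign under any of these settings in either comparison. Without the EOMES-bearing cells there were 6074 and 992 calls, without the amnion-bearing cells 6899 and 920; both settings were chosen after seeing the data. A count of calls with a library left out was not possible, as 1 sum a group leaves no residual degrees of freedom.

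Among single genes of the lists against all other cells, signs turned as follows. With GATA3 under 200 CPM the log2 values were 0.0051 for BMP4, 0.050 for CLDN4, 0.10 for DLX5, 0.32 for EZR, 0.53 for ID4, 2.20 for NANOS3, 1.37 for POSTN and 0.029 for TFAP2C. Thinning gave -0.30 for BBC3, -0.38 for HSD17B7 and 0.53 for LGR5. A marker sum of at least 200 gave 1.10 for CXCR4, and leaving out the EOMES-bearing cells gave -0.41 for DKK1. With 1 library left out, the values ran from -0.19 to 2.45 for CDX1, from -1.72 to 0.021 for CLDN4 and from -0.15 to 2.34 for IER3. The named and listed genes gave 1104 results over both comparisons, where a gene can count in each. Of these, 161 lost their call under thinning and 96 with DESeq2. Results without an adjusted p under a setting are not among those counted as lost. A count of 0 in the epiblast-like cells allows up to 2.42 CPM in library 1 and 1.11 CPM in library 2.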
